A study of Mus musculus with 6 samples.

Results

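The genes described here carry long-chain fatty acids into liver cells, bind them in the cytosol and couple them to coenzyme A. They were listed as 10 genes: the membrane receptor Cd36, the fatty acid binding proteins Fabp1, Fabp2 and Fabp4, the fatty acid transport proteins Slc27a2, Slc27a4 and Slc27a5, and the long-chain acyl-CoA synthetases Acsl1, Acsl3 and Acsl5. The array annotation gave 8 of the 10 a probe set of their own, out of 30702 genes named on the array. Acsl1 was not named in the annotation used here, and Acsl3 was named only on a probe set shared with Utp14b, so neither has a value. Where a gene had more than 1 probe set, as Acsl5 did with 2, the probe set with the highest 6-array mean was kept.

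The study hybridised liver RNA of male mice aged 8 weeks, 1 array per mouse. The HFD-inulin group held 3 offspring of mothers given inulin, a fermentable plant fibre, and the HFD group held 3 offspring of mothers given a high-fat diet. The title of the first group also names HFD, so both groups may share the high-fat diet, and the labels give no strain, litter or offspring diet. Whether mice of a group had separate mothers is not stated, so a p-value here covers only the spread among these samples, which may be partly technical.

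Long-chain fatty acids reach hepatocytes bound to albumin, and CD36 and the transport proteins favour their entry. Once inside, binding proteins keep them soluble, and acyl-CoA synthetases activate them for oxidation, for storage as triglyceride or for membrane lipids. Several of these genes are targets of PPAR alpha, the nuclear receptor that is activated by fatty acids and drives the response of the liver to fasting.

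Values are the authors' log2 signals, in which a step of 1 is a doubling of signal. They compare arrays for 1 gene, and the place of a probe set among all probe sets is given only to say whether it was bright or dim. The tissue label was checked on 8 hepatocyte markers, and Alb, the albumin gene, measured 11.37 to 11.55 in HFD-inulin and 11.55 to 11.58 in HFD arrays, near the top of each array. The summed linear signal of the 8 ran from 11974 to 13176 in HFD-inulin and from 13133 to 14175 in HFD arrays, and 1 of the 8 had a higher mean in HFD-inulin. At an unadjusted p under 0.05 limma counted 2 of the 8, both lower in HFD-inulin, beside 5.15% of all probe sets in either direction. They were Cps1 (log2 difference -0.68) and Apob (-0.17). HFD-inulin array 3 stood apart from its group. Across all probe sets it correlated at 0.995 with HFD array 2 and with HFD array 3, against 0.988 with HFD-inulin array 1 and 0.983 with HFD-inulin array 2, so results are given with and without it. HFD array 1 likewise correlated at 0.991 with HFD-inulin array 1, against 0.983 with HFD array 2 and 0.985 with HFD array 3. Whether samples were exchanged between the groups cannot be told from the files, and every difference below takes the groups as labelled.

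None of the 8 measured genes passed the test between the groups (limma, adjusted p from 0.902 to 0.953), and in 0 of the 8 were the groups apart. The means were higher in HFD-inulin for 7 of the 8, all but Slc27a5, with a median log2 difference of 0.19, while over all probe sets 43.5% were higher and the median was -0.02. Of the 30702 named genes 14398 were higher. Nor did any gene on the array pass: 0% of 65956 probe sets had an adjusted p under 0.05 in limma. At an unadjusted p under 0.05, limma counted 0 of the 8 genes and 5.15% of all probe sets. Groups that did not overlap made up 10.3% of all probe sets. With 3 arrays against 3, the exact two-sided permutation test cannot go below 0.1, and it gave 0.4 to 0.6 for the 8 genes.

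The HFD-inulin arrays spanned a wider range than the HFD arrays for 7 of the 8 genes, all but Fabp2. HFD-inulin array 1 was above every HFD array for 7 of the 8 genes, where 25.6% of all probe sets were, and HFD-inulin array 2 was above every HFD array for the same 7, where 22.7% were. For Fabp2 the latter was nearly a tie, 8.1764 on HFD-inulin array 2 against 8.1747 on HFD array 3. HFD-inulin array 3 was above every HFD array for 1 gene (24.3% of all probe sets) and below every HFD array for 4 (23.2%), namely Slc27a2, Slc27a4, Acsl5 and, at a dim signal, Fabp4. Fabp4 is counted there by its printed value only, since its dim signals carry no order. Slc27a5 was the exception, below every HFD array on HFD-inulin arrays 1 and 2, where 29.1% and 34.9% of all probe sets were. On HFD-inulin array 3 it was above them by a near tie, 8.2793 against 8.2785 on HFD array 1.

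**Figure D1:**
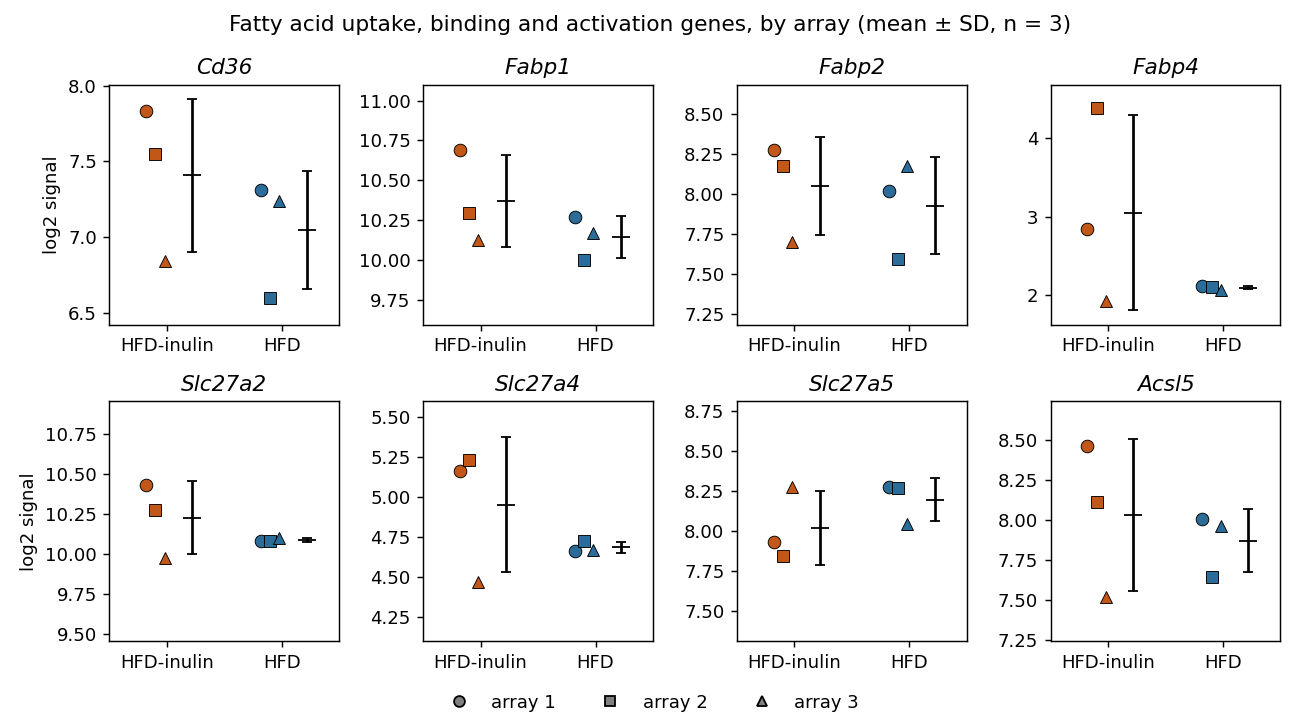
Log2 signal of the 8 measured genes (vertical axis, 1 panel per gene) in HFD-inulin and HFD livers, with symbols for arrays 1 to 3 and black bars for the mean ± SD (n = 3). HFD-inulin arrays 1 and 2 lie above the HFD arrays for 7 genes, except that array 2 is level with the highest HFD array for Fabp2. They lie below the HFD arrays for Slc27a5, while HFD-inulin array 3 lies among or beyond the HFD arrays on the other side.

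Cd36 encodes a scavenger receptor that helps long-chain fatty acids cross the plasma membrane. It read 7.83, 7.55 and 6.85 across HFD-inulin arrays 1 to 3, against 7.31, 6.60 and 7.24 in HFD arrays 1 to 3. The first 2 HFD-inulin arrays were the highest of the 6, and the third was lower than all but 1 HFD array. The means were 7.41 ± 0.51 in HFD-inulin livers and 7.05 ± 0.39 in HFD livers (SD, n = 3 each), a difference of 0.36 with a 95% interval of -0.34 to 1.06 (limma adjusted p = 0.917). Leaving out HFD-inulin array 1 gave 0.15, and leaving out HFD array 2 gave 0.13.

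Fabp1 encodes the liver fatty acid binding protein, an abundant cytosolic carrier of hepatocytes. It read 10.69, 10.29 and 10.13 across HFD-inulin arrays 1 to 3, against 10.27, 10.002 and 10.17 in HFD arrays 1 to 3. Only HFD-inulin array 1 stood clear of the others, since array 2 exceeded the highest HFD array by a small margin. The difference was 0.23 (95% interval -0.14 to 0.59, limma adjusted p = 0.906), and it was 0.065 without HFD-inulin array 1.

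Because most of these genes were high on the same arrays, their promoters were searched for the direct repeat to which PPAR alpha and its partner RXR bind. The RefSeq windows (GRCm38.p6) run from 250 bases before to 50 bases after a start given in RefSeq. For Cd36, Acsl5 and 1 of the 2 Acsl1 windows that start lies inside the annotated gene, not at its outer end. The element searched, direct repeat 1, is AGGTCA written 2 times with 1 base of any kind between the copies. The search covered both strands, counted mismatches over the 12 fixed letters and kept the best match of each window. The Fabp1 window, at chr6:71199629-71199928 on the plus strand, held a match with 1 mismatch, which 0.554% of all 32851 windows have or better. The match lies between 67 and 55 bases before the start and reads on the opposite strand. A PPAR response element in this promoter is known from rat. The window is shown because it is the closest match among the genes described, with the match in capitals.
Fabp1 promoter: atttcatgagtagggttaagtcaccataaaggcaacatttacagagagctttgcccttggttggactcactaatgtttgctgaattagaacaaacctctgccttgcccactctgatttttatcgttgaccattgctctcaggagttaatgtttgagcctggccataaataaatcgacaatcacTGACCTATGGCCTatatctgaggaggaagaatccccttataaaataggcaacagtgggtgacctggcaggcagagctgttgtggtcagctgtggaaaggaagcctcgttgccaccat

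The next best match was in Cd36, with 2 mismatches, at 63 to 51 bases before the start used for its window, chr5:17835847-17836146 on the minus strand. The Cd36 gene is annotated at chr5:17781690-17888959, so this window lies within it. Of all windows 3.86% have 2 mismatches or fewer. Both sites are shown in the direction of the repeat, in capitals over the whole match, to compare their repeats.
Fabp1: AGGCCATAGGTCA
Cd36: AAGTCAGAGGCCA
The table held 9 windows for 8 of the 10 genes, all but Fabp4 and Slc27a5, and these were the only 2 windows with 2 mismatches or fewer. Among the other PPAR alpha targets listed, 3 of 23 windows had such a match, those of Creb3l3, Plin2 and Slc25a20. A match of letters does not show that a factor binds there.

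Fabp2 encodes the intestinal fatty acid binding protein. It read 8.27, 8.18 and 7.70 across HFD-inulin arrays 1 to 3, against 8.02, 7.59 and 8.17 in HFD arrays 1 to 3. The HFD arrays spanned as much as the HFD-inulin arrays, and HFD-inulin array 2 was level with HFD array 3. The difference was 0.12 (95% interval -0.36 to 0.60, limma adjusted p = 0.953), and it was -0.046 without HFD array 2. The summed linear signal of 10 enterocyte and intestinal genes ran from 606 to 972 in HFD-inulin and from 669 to 1040 in HFD arrays, with 5 of the 10 higher in HFD-inulin. Of the defining genes of enterocytes, Sis, the sucrase-isomaltase gene, lay between 0.47 and 0.55 in HFD-inulin and between 0.54 and 0.58 in HFD arrays, at the low end of the array.

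Fabp4 encodes the adipocyte fatty acid binding protein, which macrophages and capillary endothelium also make. It had the widest range of the 8 genes, 2.84, 4.38 and 1.92 in HFD-inulin arrays 1 to 3, against 2.11, 2.10 and 2.07 in HFD arrays 1 to 3. HFD-inulin arrays 2 and 1 were the highest of the 6. The HFD arrays and HFD-inulin array 3 lay below the upper quartile of all probe sets, which ran from 2.53 to 2.63 across arrays, so those 4 values carry little signal over background, have no order among themselves and allow no exact fold. On the deposited scale the difference was 0.95 (SE 0.56, 95% interval -0.39 to 2.30, limma adjusted p = 0.902), and without HFD-inulin array 2 it was 0.29.

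The cell types that could bring Fabp4 were read from marker lists. The adipocyte genes Adipoq, the adiponectin gene, and Lep, the leptin gene, measured 0.76 to 0.81 and 1.04 to 1.07 in HFD-inulin arrays, against 0.83 to 0.89 and 1.02 to 1.24 in HFD arrays, below or near the array median. The summed linear signal of 9 adipocyte genes ran from 92.4 to 176 in HFD-inulin and from 110 to 127 in HFD arrays, and 4 of the 9 had a higher mean in HFD-inulin. By array the sums were 176, 128 and 92.4 in HFD-inulin arrays 1 to 3, against 127, 110 and 110 in HFD arrays 1 to 3. Adipoq and Lep, being so dim, add little to these sums, which rest on the brighter genes of the list. Among the brighter genes of the list, Lipe, hormone-sensitive lipase, stood at 0.54, 0.50 and -0.0080 against the HFD mean on HFD-inulin arrays 1 to 3. Pnpla2, adipose triglyceride lipase, stood at 0.59, 0.36 and -0.27 on the same arrays. Both were thus high on HFD-inulin arrays 1 and 2, as Fabp4 was, but their order differed. They were highest on array 1, and Fabp4 on array 2 (4.38, against 2.84 on array 1). Cidea, a lipid droplet protein, stood at 1.99 on HFD-inulin array 1 and at 0.03 and -0.44 on arrays 2 and 3. Plin4, another droplet protein, was below every HFD array on all 3, with a difference of -0.72 (unadjusted p = 0.00764 and adjusted p = 0.902 in limma). For 10 macrophage and Kupffer cell genes the sums were 326 to 354 in HFD-inulin and 348 to 379 in HFD, with 3 of the 10 higher. For 10 endothelial genes they were 293 to 295 in HFD-inulin and 296 to 325 in HFD, with 2 of the 10 higher. The part of these cells in the Fabp4 signal was not tested, and in whole liver a change in the number of cells of a type and a change in RNA per cell cannot be told apart.

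Among 1101 named genes that were no dimmer than the median probe set and had a range of at least 1 log2 unit, those most like Fabp4 over the 6 arrays were Dnajb11, Rpn1, Gm11581, Nek6 and Gm6485, with Pearson r from 0.993 to 0.995. Dnajb11 encodes a chaperone cofactor of the endoplasmic reticulum, and Rpn1 encodes a subunit of the oligosaccharyltransferase there. Dnajb11 read 4.64, 5.95 and 4.10 across HFD-inulin arrays 1 to 3, against 4.20, 4.25 and 4.09 in HFD arrays 1 to 3. These r values describe 6 points of which HFD-inulin array 2 is the farthest, and the genes were picked for them.

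The 3 transport proteins of the SLC27 family also act as acyl-CoA synthetases. Slc27a2 encodes FATP2, an activator of very long-chain fatty acids in peroxisomes and the endoplasmic reticulum. It read 10.43, 10.27 and 9.98 across HFD-inulin arrays 1 to 3, against 10.08, 10.08 and 10.10 in HFD arrays 1 to 3. The HFD arrays were nearly identical, with an SD of 0.01 against 0.23 in HFD-inulin, where 2 arrays lay above them and 1 below. The difference was 0.14 (95% interval -0.14 to 0.42, limma adjusted p = 0.917), and it was 0.039 without HFD-inulin array 1.

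Slc27a4 encodes FATP4, best known from intestine and skin. It read 5.16, 5.23 and 4.46 across HFD-inulin arrays 1 to 3, against 4.66, 4.72 and 4.67 in HFD arrays 1 to 3. As with Slc27a2, arrays 1 and 2 were clearly above the narrow HFD range and array 3 below it. The difference was 0.27 (95% interval -0.21 to 0.74, limma adjusted p = 0.909).

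Slc27a5 encodes FATP5, a liver transporter that also couples bile acids to coenzyme A. It read 7.93, 7.84 and 8.28 across HFD-inulin arrays 1 to 3, against 8.28, 8.27 and 8.04 in HFD arrays 1 to 3. It was the only one of the 8 with a lower mean in HFD-inulin, where arrays 1 and 2 were the lowest of the 6 and array 3 was level with HFD arrays 1 and 2. The difference was -0.18 (95% interval -0.49 to 0.14, limma adjusted p = 0.909). After quantile normalization it was -0.36, and it was then the only one of the 8 with an unadjusted p under 0.05 in limma (adjusted p = 0.954). In that fit limma counted 1610 probe sets higher and 1471 lower of 65956 at this threshold.

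Acsl5 encodes a long-chain acyl-CoA synthetase of the endoplasmic reticulum and mitochondria. Its kept probe set read 8.46, 8.11 and 7.52 across HFD-inulin arrays 1 to 3, against 8.01, 7.64 and 7.96 in HFD arrays 1 to 3. The highest of the 6 was HFD-inulin array 1 and the lowest HFD-inulin array 3, so the HFD arrays lay inside the range of the HFD-inulin arrays. The difference was 0.16 (95% interval -0.41 to 0.73, limma adjusted p = 0.949), and it was -0.054 without HFD-inulin array 1. The other Acsl5 probe set, which is dim, read 2.26, 2.32 and 2.73 across HFD-inulin arrays 1 to 3, against 2.65, 2.37 and 2.38 in HFD arrays 1 to 3, and did not follow the first.

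Without HFD-inulin array 3, the differences of the 8 genes were further from 0. They were 0.64 for Cd36, 0.35 for Fabp1, 0.30 for Fabp2, 1.52 for Fabp4, 0.27 for Slc27a2, 0.51 for Slc27a4, -0.31 for Slc27a5 and 0.42 for Acsl5. At an unadjusted p under 0.05 in limma, 6 of the 8 were then counted, all but Fabp1 and Fabp2, where 9.89% of all probe sets were. None had an adjusted p under 0.05, the smallest being 0.0929 for Slc27a4, and 0% of all probe sets did. These values describe the other 5 arrays. HFD-inulin array 3 was singled out in these same data. For each of the 8 genes it lay on the other side of the HFD mean from the difference. Leaving it out therefore had to move every difference away from 0, and the count of 6 is no independent result. Without HFD-inulin array 1 most differences were nearer to 0 instead, with 0.011 for Fabp2, 1.06 for Fabp4, 0.16 for Slc27a4 and -0.14 for Slc27a5 beside the values given above. Without HFD-inulin array 2 they were 0.059 for Fabp2, 0.13 for Slc27a4 and -0.091 for Slc27a5, and without HFD array 2 they were 0.15 for Fabp1 and 0.047 for Acsl5. In each of these 3 fits limma counted 0 of the 8 at an unadjusted p under 0.05. In the fit without HFD array 1 the means of 7 of the 8 genes were higher in HFD-inulin, with 0.49 for Cd36, 0.96 for Fabp4 and -0.14 for Slc27a5. There too limma counted 0 of the 8 at an unadjusted p under 0.05.

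**Figure D2:**
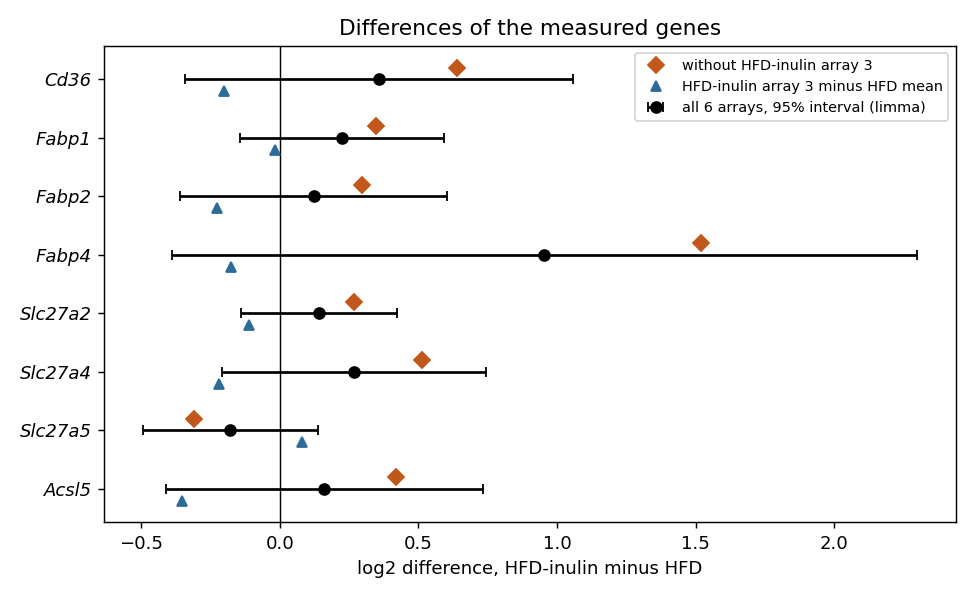
Log2 difference of HFD-inulin minus HFD for the 8 measured genes: black circles give all 6 arrays with 95% intervals from limma, orange diamonds the value without HFD-inulin array 3, and blue triangles HFD-inulin array 3 minus the HFD mean. Every interval includes 0, and for each gene array 3 lies on the other side of 0 from the other values.

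The arrays also fell into 2 sets by the signal of 246 probe sets numbered on chromosome Y that share an identical profile with another probe set. The first set was HFD-inulin arrays 1 and 2, with means of 1.91 and 1.60, and HFD array 1, with 1.34. The second was HFD-inulin array 3, with 3.15, and HFD arrays 2 and 3, with 3.24 and 2.99. Each set thus holds 1 group with a single array, so the second set shows HFD-inulin array 3 over again and is no independent comparison. Within the first set the differences were 0.38 for Cd36, 1.502 for Fabp4, 0.54 for Slc27a4 and -0.39 for Slc27a5. Within the second they were -0.07, -0.17, -0.23 and 0.12 for the same genes, with Fabp4 dim on every array of that set. There 2 of the 8 genes were higher in HFD-inulin, beside 33594 of all 65956 probe sets. In the first set 7 of the 8 were, beside 29803 of all probe sets. With the set as a block, Cd36 differed by 0.15 and Fabp4 by 0.67, and the part of this split in the results was not tested.

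Other targets of PPAR alpha in liver were high on the same arrays. Of 26 listed, 23 were measured, 20 of them higher on average in HFD-inulin (median difference 0.39) where 43.5% of all probe sets were, and none passed the test (smallest limma adjusted p 0.902). Averaged over the 23 and set against the HFD mean, HFD-inulin arrays 1 to 3 stood at 1.08, 0.88 and -0.28 on the log2 scale. The same average over the 8 genes was 0.45, 0.48 and -0.15. Medians in place of averages were 0.80, 0.58 and -0.32 for the 23 and 0.51, 0.25 and -0.19 for the 8. The average of the 8 on array 2 is raised by Fabp4, at 2.29 there over a dim HFD signal that allows no exact fold. At an unadjusted p under 0.05 limma counted 2 higher, Acot3 (0.89) and Acadl (0.44), and 1 lower, Cpt1a (-0.35), the gate of mitochondrial fatty acid entry, where 5.15% of all probe sets were counted in either direction. Without HFD-inulin array 3 it counted 19 higher and 1 lower, beside 9.89% of all probe sets in either direction. That array was singled out in these same data and averaged below the HFD mean for these genes. A larger average difference without it was thus fixed in advance.

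Pdk4, a kinase that shuts down pyruvate dehydrogenase in fasting, had the largest difference of the 23. It read 7.03, 7.79 and 3.24 across HFD-inulin arrays 1 to 3, against 3.50, 3.85 and 3.44 in HFD arrays 1 to 3 (difference 2.42, SE 1.10, limma adjusted p = 0.902). It was high in HFD-inulin arrays 1 and 2, while array 3 lay just below the HFD arrays.

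**Figure D3:**
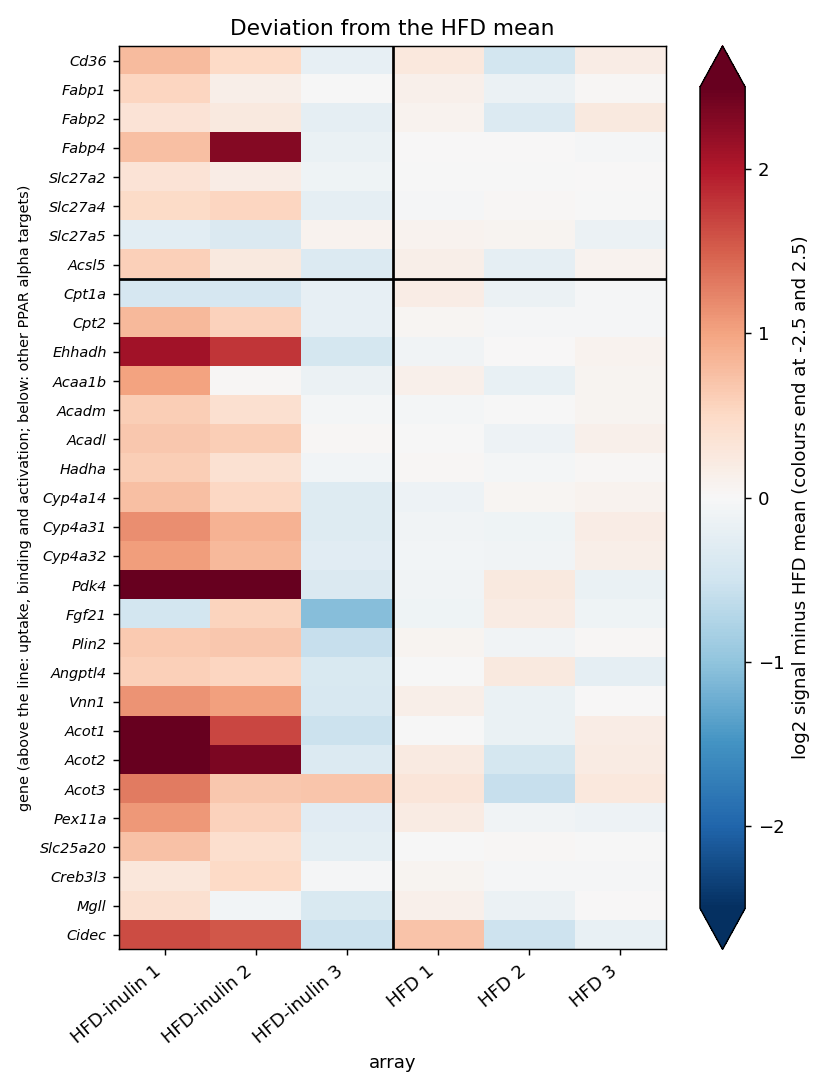
Log2 signal minus the HFD mean for the 8 measured genes (above the line) and 23 other PPAR alpha targets (below it) in each of the 6 arrays. Red fills HFD-inulin arrays 1 and 2 for most genes. Pdk4 on both of these arrays, and Acot1 and Acot2 on array 1, lie beyond the end of the colour scale. HFD-inulin array 3 is pale or blue except for Acot3 (0.69).

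Of 14 listed regulators measured, none passed the test and 5 had higher means in HFD-inulin. At an unadjusted p under 0.05 limma counted 2, both lower, beside 5.15% of all probe sets in either direction. Hnf4a, a nuclear receptor of hepatocyte identity, had the smallest p, with 6.86, 6.86 and 6.77 in HFD-inulin arrays 1 to 3, against 7.38, 7.46 and 7.44 in HFD arrays 1 to 3 (difference -0.60, limma adjusted p = 0.390). Ppara itself read 7.42, 7.30 and 7.31 across HFD-inulin arrays 1 to 3, against 7.57, 7.47 and 7.48 in HFD arrays 1 to 3, with a difference of -0.16 (limma adjusted p = 0.902). In both genes all 3 HFD-inulin arrays were below every HFD array, as in 6.02% of all probe sets. Whether Ppara is counted depends on the fit. Its unadjusted p in limma was 0.048, against 0.20 with a trended and robust prior, 0.14 after centring on medians and 0.0056 after quantile normalization. The coactivator genes Ppargc1a (-0.62) and Ppargc1b (-0.27) had the next smallest p and overlapped between groups.

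The families to which these genes belong were counted too. Of 7 FABP genes 6 had higher means in HFD-inulin, of 6 FATP genes 3 did, and of 3 measured ACSL genes 2 did, beside 43.5% of all probe sets. Among the FABP genes, Fabp6 averaged 0.90 in HFD-inulin and 0.81 in HFD livers, and Fabp5 averaged 2.31 and 1.87. Like Fabp7 and most Fabp4 values these were dim, so the FABP count rests partly on weak signals. The FATP and ACSL counts have the same limit. Among their genes with lower means, Slc27a6 (0.94 in HFD-inulin and 1.03 in HFD livers) and Acsl6 (1.49 in both) were dim, and Slc27a3 was nearly level (2.73 and 2.76). Acsl4, a synthetase that prefers arachidonic acid, read 4.73, 4.69 and 4.15 across HFD-inulin arrays 1 to 3, against 4.05, 3.77 and 3.91 in HFD arrays 1 to 3. The groups did not overlap, as in 4.32% of all probe sets in this direction, and the difference was 0.61 (SE 0.17, limma adjusted p = 0.902). Fabp7, the brain type, had a difference of 0.31 at a low signal, 2.36 ± 0.06 in HFD-inulin livers and 2.06 ± 0.15 in HFD livers (SD, n = 3 each, limma adjusted p = 0.902). Slc27a1, which encodes FATP1, was high on 1 array, with 5.30, 3.81 and 3.94 in HFD-inulin arrays 1 to 3, against 4.12, 4.02 and 4.15 in HFD arrays 1 to 3.

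**Figure D4:**
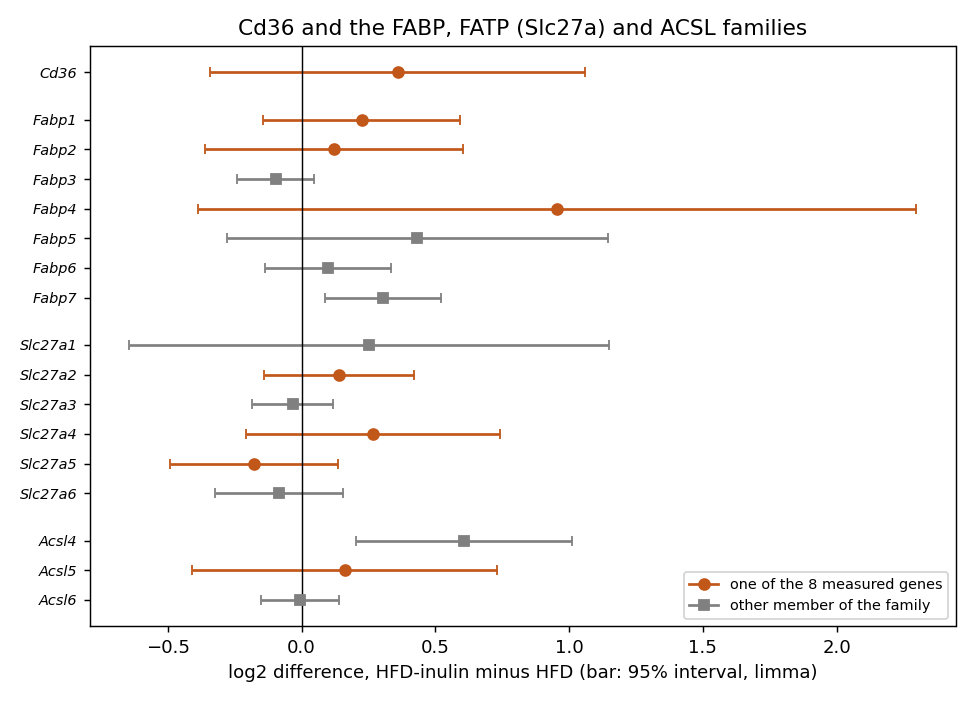
Log2 difference of HFD-inulin minus HFD, with 95% intervals from limma (n = 3 arrays per group), for Cd36 and the measured FABP, FATP (Slc27a) and ACSL genes; orange marks the 8 genes described first and grey the rest of their families. The intervals of Fabp7 and Acsl4 lie above 0 before adjustment over all probe sets.

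The rest of the pathway was counted by list. Of 12 other genes of uptake and release at the cell surface, 5 were higher on average in HFD-inulin, their median difference was -0.06, and none passed the adjusted test. At an unadjusted p under 0.05 limma counted 3 of them (5.15% of all probe sets in either direction), each with HFD-inulin below every HFD array (6.02% of all probe sets): Lipg, endothelial lipase (-0.98), Scarb1, the HDL receptor (-0.43), and Mfsd2a, a transporter of lysophosphatidylcholine (-0.80). Lipg read 4.44, 3.56 and 4.47 across HFD-inulin arrays 1 to 3, against 5.28, 5.36 and 4.75 in HFD arrays 1 to 3 (limma adjusted p = 0.902). For Scarb1 the groups were apart by a small margin, 5.67 on HFD-inulin array 3 against 5.70 on HFD array 3. Lpl, lipoprotein lipase, had the next smallest p, with a difference of -0.09.

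Of 11 other binding proteins, 8 had higher means, with a median of 0.10, and limma counted 1 at an unadjusted p under 0.05, Fabp7, beside 5.15% of all probe sets. Dbi, the acyl-CoA binding protein, read 5.56, 5.65 and 4.76 across HFD-inulin arrays 1 to 3, against 5.01, 4.77 and 4.97 in HFD arrays 1 to 3, again high on arrays 1 and 2 and not on array 3. Stard10, a phospholipid carrier (0.17), and Fabp3, the heart type (-0.10), were the others with the smallest p. Of 14 other acyl-CoA synthetases, 8 had higher means, with a median of 0.02, and limma counted 1, Acsl4, beside the same share. Acsm1, a medium-chain synthetase (0.18), Acss2, the cytosolic acetyl-CoA synthetase (-0.36), and Acsf3 (0.18) had the next smallest p. Without HFD-inulin array 3, limma counted 4 binding proteins higher at an unadjusted p under 0.05, 3 synthetases higher and 2 lower, 5 regulators lower and 3 surface genes lower, where 9.89% of all probe sets were counted in either direction, and none of these passed an adjusted p of 0.05.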

How the data were processed

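Liver RNA of 6 mice was measured on Affymetrix arrays, 3 per group. The authors deposited 65956 log2 signals per array. The submitters' processing notes name Affymetrix Expression Console 1.0. How signals were summarized and corrected for background, and on which genome build, is not given in the sources used here. That the scale is log2 was inferred from the range of the values. No detection calls or scan batches were used, and the number of arrays limits the precision.

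Platform annotation from GEO, with symbols updated through RefSeq (GRCm38.p6), gave 31258 probe sets with 1 gene, 1492 with several and 33206 with none. HFD-inulin minus HFD was fitted in limma 3.58.1 under R 4.3.3 (lmFit, eBayes, two-sided, no filter or covariate), and p-values were adjusted by Benjamini-Hochberg over the whole table, with 0.05 as threshold. The fit was tested on simulated data. All 10 listed genes were to be named, with up to 4 genes of each pathway list by smallest p, and the 5 genes most like the one with the widest range. Genes, lists and tests were chosen with earlier results of these data known. Alternatives were a trended and robust prior, removal of dim probe sets, quantile normalization, centring on medians, array weights, replicate number or the chromosome Y split as a block, each part of that split, each array left out, and other probe sets. A planned comparison of protein sequences was not made.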

Additional observations from a re-analysis of the deposited data

How the results depend on the processing

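The 3 arrays per group limit the precision, and Fabp4 was dim in HFD arrays. None of the 8 genes had an adjusted p under 0.05 in any of the 15 alternative fits, and 0 of all probe sets did, except 4 with a trended and robust prior. At an unadjusted p under 0.05 limma counted 1 of the 8 genes after quantile normalization, beside 1610 probe sets higher and 1471 lower of 65956. It counted 0 to 6 of the 8 with 1 array left out. The 6 were without HFD-inulin array 3, where 9.89% of all probe sets were counted. As that array was singled out in these same data, the 6 are no independent result. The number with higher means was 2 of 8 within the high chromosome Y arrays, beside 33594 of 65956 probe sets. HFD-inulin array 3 stands alone in that set, so this and the 7 sign changes there restate that array. A changed prior, the removal of dim probe sets and the replicate block cannot move a difference here, so a sign kept under them carries no information. Of 121 differences under an alternative, these included, 111 kept their sign. The other 10 were -0.0013 for Acsl5 with the split as a block, -0.054 for Acsl5 without HFD-inulin array 1, -0.046 for Fabp2 without HFD array 2, and within the high arrays -0.071 for Cd36, -0.18 for Fabp2, -0.17 for Fabp4, -0.11 for Slc27a2, -0.23 for Slc27a4, 0.12 for Slc27a5 and -0.28 for Acsl5. The Fabp4 value within the high arrays compares dim signals that have no order. With 1 array left out, Acsl5 ran from -0.054 to 0.42 and Fabp2 from -0.046 to 0.30. After quantile normalization the differences of Fabp2 and Acsl5 were 0.0033 and 0.034. The cause was not tested. The leave-one-out counts of the pathway lists were added after seeing the data. The arrays share only a replicate number: same-numbered arrays correlated at 0.26, -0.28 and 0.40 in their deviations from the group mean, and not every array correlated best with its own number. With the replicate number as a block limma called 0 probe sets, and Fabp4 differed by 0.95.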
